A study of Mus musculus with 18 samples.

Results

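The response to IL-33 was compared between wild-type (WT) and ST2KO basophils grown from bone marrow; the donor mice were C57BL/6J, aged 4 to 6 weeks. The measure was a difference of differences: the log2 change from unstimulated to IL-33-stimulated ST2KO cells minus the same change in WT cells. It rests on 12 of the 18 arrays of the series, 3 in each of 4 groups: WT unstimulated, WT IL-33, ST2KO unstimulated and ST2KO IL-33, with 4 h given for the stimulated groups. The other 6 arrays, of WT and ST2KO cells stimulated through IgE for 4 h, entered the fit so that all 6 groups shared 1 estimate of the spread. All groups have the same strain and age in the labels, and the labels describe the knockout only by the name ST2KO. Whether replicates are separate cultures or mice is not given, and p-values then reflect only the spread between these arrays, possibly a technical one.

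IL-33 is an alarmin of the IL-1 family that is released from damaged barrier and stromal cells. It binds ST2, the product of Il1rl1, together with the IL-1 receptor accessory protein, and MyD88 and the IRAK kinases pass the signal on to NF-kB and the MAP kinases. Basophils are circulating granulocytes of type 2 immunity that carry ST2 as well as the high-affinity IgE receptor and make cytokines such as IL-4 and IL-13.

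Of 9973 genes tested, 176 differed in their IL-33 response between the genotypes, 1.76% (limma, adjusted p under 0.05). The ST2KO response was lower for 158 genes (1.58%) and higher for 18 (0.18%). A lower response was found for all 6 tested members of the IkB family and for the cytokine and chemokine genes Cxcl2, Il1a, Csf2, Il1b and Il6. This family and the other gene lists were chosen with earlier results of these data known. In ST2KO cells alone 0 genes passed after IL-33 with limma (0% of those tested, lowest adjusted p = 0.61), and 274 had an unadjusted p under 0.05. At an unadjusted p under 0.05 the difference of responses counted 602 genes lower (6.04%) and 479 higher (4.8%). Precision is limited by the number of arrays, and the median standard error was 0.21 log2 units for a difference of responses and 0.15 for a comparison of 2 groups.

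Of 15 basophil markers 14 were detected on all 12 arrays, Mcpt8, Fcer1a and Hdc among them. The targeted gene was not analysed here, since 0 probes were paired with the symbol Il1rl1 in the platform annotation, and the knockout could not be checked on its own gene. The 12 arrays had 14716 to 15724 probes above background (32.5% to 34.7% of 45281), and replicates correlated at 0.981 to 0.994 across genes. Members of the marker lists of other cell types were detected too. On all 12 arrays these were 6 of 12 mast cell, 1 of 7 eosinophil, 4 of 12 neutrophil, 5 of 12 macrophage, 5 of 12 dendritic cell, 3 of 11 lymphocyte and 6 of 9 erythroid and megakaryocyte markers with a probe. Above background on 0 of the 12 were Mcpt4, Mcpt2, Mrgprb1 and Mitf of the mast cell list, Epx, Siglecf, Ccr3 and Prg3 of the eosinophil list, Itgax, Xcr1, Ciita and Flt3 of the dendritic cell list, Cd3e, Cd3d, Cd3g and Ncr1 of the lymphocyte list, and Alas2. The WT arrays with the number 2 stood apart. Their mean level of interferon response genes was 9.42 unstimulated and 9.43 after IL-33, against 7.41 to 8.25 on the 4 other WT arrays. Their mean level of 3 eosinophil markers was 6.61 and 6.899, against 5.52 to 5.97, and of 10 neutrophil markers 7.12 and 7.33, against 6.203 to 6.78. The ST2KO IL-33 array 1 was also high for interferon genes, at 8.26 against 7.28 and 6.86, and for neutrophil markers, at 6.71 against 5.41 and 5.74. Unstimulated ST2KO arrays stood at 6.77 to 7.39 for interferon genes and 5.64 to 5.79 for neutrophil markers. Without the 3 WT number 2 arrays 211 genes passed, 193 lower and 18 higher, and 183 passed, 168 lower and 15 higher, without the ST2KO IL-33 array 1 as well. Of 61 genes named here that passed, 56 still did in the first case and 54 in the second, and all 61 kept their sign in both.

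**Figure D1:**
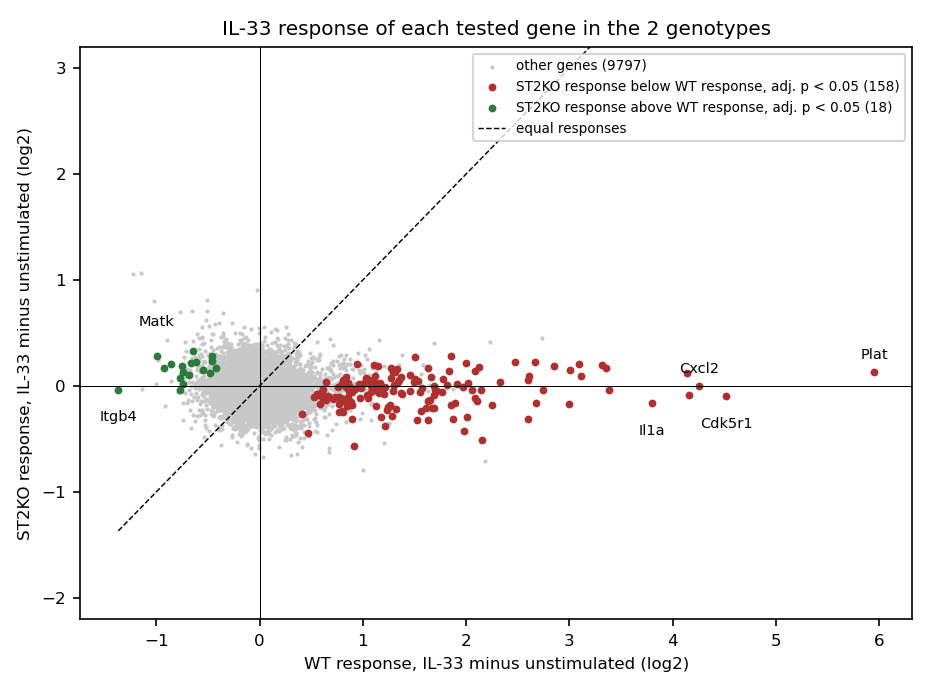
Log2 change from unstimulated to IL-33-stimulated cells in WT (x axis) and ST2KO (y axis) for each of 9973 genes, red for the 158 genes with a lower and green for the 18 with a higher ST2KO response. The red genes spread along the WT axis up to the value of Plat while their ST2KO values stay between -0.56 and 0.29; values of genes below background, Plat among them, are as fitted.

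The plot of both responses shows how the 176 genes were built up. The 158 with a lower ST2KO response had a median WT change of 1.28 and a median ST2KO change of -0.041, with 60 of them above 0 in ST2KO. The 18 with a higher response had a median WT change of -0.71 and a median ST2KO change of 0.17. By size, 116 of the 158 and 4 of the 18 differed at least 2-fold, and 33 of the 158 at least 4-fold. The smallest differences that passed were -0.601 and 0.59. The WT response alone was passed by 155 of the 158 as a rise and by all 18 as a fall, beside 300 rises (3.01%) and 77 falls (0.772%) among all genes. The WT arrays form one side of the difference, so nothing is read from that overlap. For 169 of the 176 genes the 95% confidence interval of the ST2KO change included 0, and for 174 both of its ends were under a 2-fold change. The genes were chosen on these same values, so the counts describe them and nothing is read from them. Without background correction the differences were more than 1.5 times smaller for 26 of the 61 named genes that passed, with the same sign, as for Cdk5r1 (-3.07), Itih1 (-1.68), Bcl3 (-0.79) and Itgb4 (0.66).

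The IkB family holds the inhibitors that bind NF-kB in the cytoplasm and the nuclear members that steer its target genes, and several of them are themselves NF-kB targets. All 6 members tested responded less in ST2KO cells, beside 1.58% of all genes tested. The list median was -1.64, beside 0.0095 over all genes tested. Like the other lists, it was chosen with earlier results of these data known, so the count only describes it. Nfkbia, which encodes the inhibitor IkB alpha, stood at 9.24, 9.73 and 9.61 on the unstimulated WT arrays and at 12.67, 12.57 and 12.64 after IL-33. In ST2KO cells its levels were 9.24, 9.02 and 8.76 unstimulated and 9.49, 9.32 and 8.82 after IL-33. The WT IL-33 arrays stood above the 9 others, while the ST2KO groups overlapped. The change was 3.098 ± 0.19 in WT and 0.21 ± 0.19 in ST2KO, and their difference was -2.89 ± 0.26 (adjusted p = 4.0e-06). Nfkbiz, which encodes the nuclear IkB zeta, a cofactor for Il6 and other secondary response genes, rose from 7.24, 7.56 and 7.36 to 10.76, 10.73 and 10.82 in WT. Its ST2KO levels were 7.44, 7.92 and 7.56 unstimulated and 7.499, 7.52 and 7.78 after IL-33. Here too the WT IL-33 arrays were apart from all others, and the difference of responses was -3.42 ± 0.36 (adjusted p = 2.0e-05). Bcl3, the nuclear partner of p50 and p52, differed by -1.78 ± 0.25 (adjusted p = 0.00037). Nfkbie, which encodes IkB epsilon, differed by -1.51 ± 0.24, Nfkbid, the nuclear IkBNS, by -1.14 ± 0.20 and Nfkbib, IkB beta, by -1.02 ± 0.21 (adjusted p = 0.0161).

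**Figure D2:**
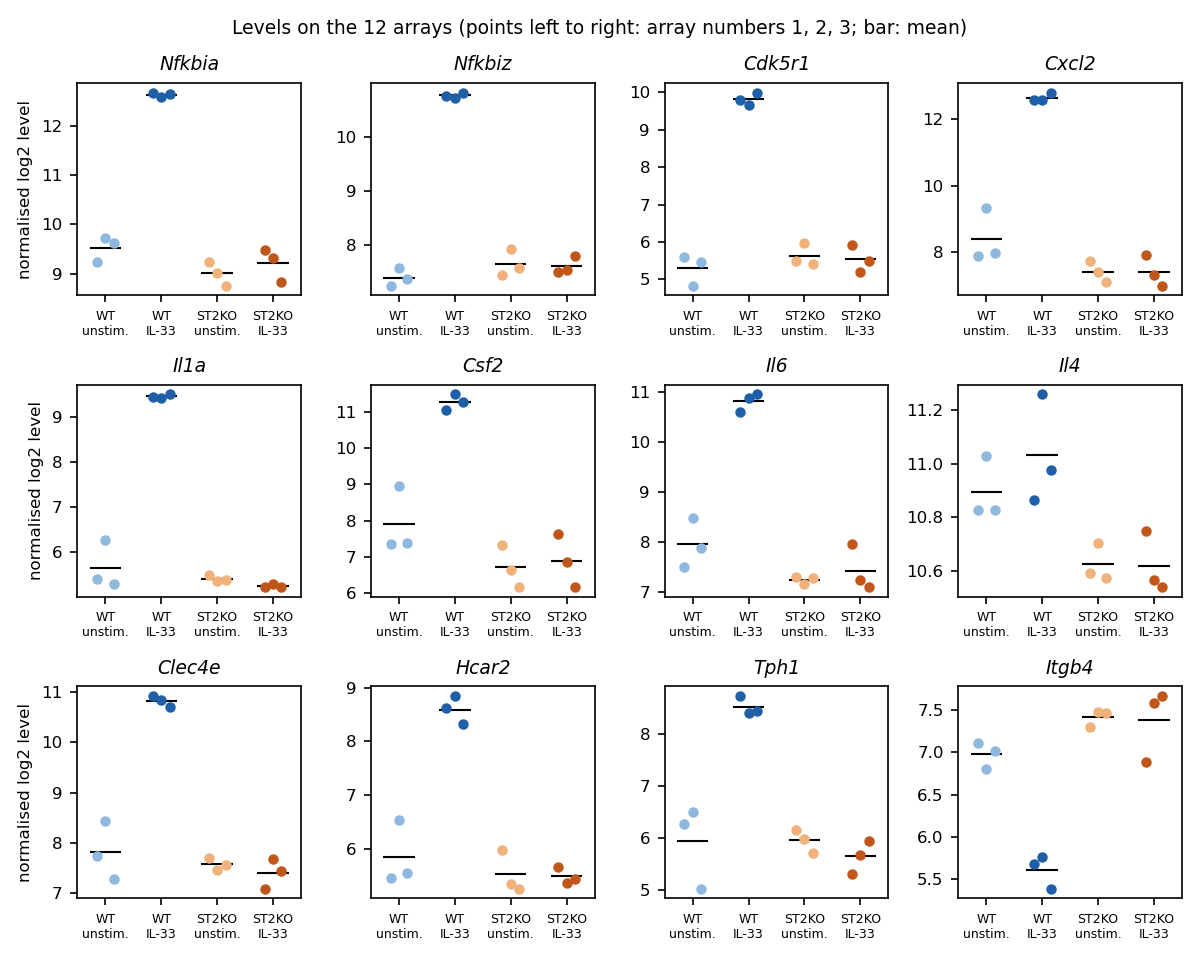
Normalised log2 level of 12 genes on each of the 12 arrays, with points for the 3 arrays of a group and a bar at their mean; each panel has its own y axis, which does not start at 0. For 10 of the genes the WT IL-33 arrays stand above the 9 other arrays, for Itgb4 they stand below, and for Il4 they overlap the unstimulated WT arrays.

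Promoter windows from RefSeq (build GRCm38.p6, 250 bases before to 50 after a start site) show where letters of the kind NF-kB binds lie in some of these genes. A window was found for 139 of the 176 genes and for 126 of the 158 with a lower response. The stretches printed run 5′ to 3′ on the gene's strand, with matches to the NF-kB consensus in capitals on either strand. The consensus was GGGRNNYYCC, where R is A or G, Y is C or T and N is any base. First come the 4 genes with the lowest difference of responses among those with a match that were detected in all 4 groups, then the IkB family members Bcl3, Nfkbie and Nfkbid.
Cxcl2 (chr5:90903762-90903852, plus strand): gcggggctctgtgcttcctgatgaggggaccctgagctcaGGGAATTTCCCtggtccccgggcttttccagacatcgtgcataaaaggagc
Nfkbia (chr12:55492627-55492716, minus strand): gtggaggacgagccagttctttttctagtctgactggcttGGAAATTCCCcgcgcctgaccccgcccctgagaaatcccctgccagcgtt
Papss2 (chr19:32595507-32595671, plus strand): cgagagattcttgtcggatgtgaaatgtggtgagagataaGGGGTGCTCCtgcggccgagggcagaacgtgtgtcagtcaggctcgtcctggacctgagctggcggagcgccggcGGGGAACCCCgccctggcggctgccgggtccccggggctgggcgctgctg
Il6 (chr5:30013030-30013119, plus strand): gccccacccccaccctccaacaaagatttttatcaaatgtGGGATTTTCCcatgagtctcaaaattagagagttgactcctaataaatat
Bcl3 (chr7:19822706-19822793, minus strand): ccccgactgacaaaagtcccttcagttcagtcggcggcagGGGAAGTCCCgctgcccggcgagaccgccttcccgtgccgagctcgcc
Nfkbie (chr17:45555554-45555643, plus strand): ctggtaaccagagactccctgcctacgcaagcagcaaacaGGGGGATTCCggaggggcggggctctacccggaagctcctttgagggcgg
Nfkbid (chr7:30422156-30422274, plus strand): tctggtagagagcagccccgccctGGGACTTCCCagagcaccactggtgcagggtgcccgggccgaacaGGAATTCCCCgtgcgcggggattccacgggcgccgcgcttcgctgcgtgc
The consensus was present in a window of 34 of the 126 genes, 27%, compared with 987 of 8129 tested genes that have a window, 12.1%, and 2581 of 27025 genes in the table, 9.55%. TGACTCA, the AP-1 element, was present in 11 of 126 (8.73%), beside 390 of 8129 (4.8%). Of the 18 genes with a higher response 13 had a window, and 0 of the 13 held either. A match is a run of letters and not evidence of binding, and no test was made of these shares. Only genes with a match are printed. The windows of Il1a, Il1b, Csf2, Ikbke, Icam1 and Zc3h12a, among others, held no match to the NF-kB consensus. For Nfkbib no match was found either. Cdk5r1, Plat, Dgat2, Nfkbiz and Itgb4 were not matched to a window.

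Among 11 genes of NF-kB subunits and kinases 4 responded less and 0 more (median -0.71). Over all genes tested 1.58% responded less and 0.18% more, the shares that stand beside this and each later list count. Ikbke, an IKK-related kinase, stood at 7.27, 7.58 and 7.38 unstimulated and 10.37, 10.53 and 10.34 after IL-33 in WT, and at 7.24, 7.33 and 7.401 and 7.45, 7.399 and 7.56 in ST2KO. The 3 WT IL-33 arrays lay far above the 9 others, and the difference was -2.85 ± 0.21 (adjusted p = 7.0e-07). Relb, a subunit of the noncanonical pathway, differed by -1.805 ± 0.24 and its partner Nfkb2 by -1.16 ± 0.198 (adjusted p = 0.00023 and 0.0029). Rel, the subunit c-Rel, had a difference of -1.03 ± 0.31 that did not pass (adjusted p = 0.147). Among 14 regulators of mRNA decay and ubiquitin chains 4 responded less (median -0.48). Zc3h12a, the endoribonuclease Regnase-1 that degrades inflammatory mRNAs, rose in WT from 6.48, 6.62 and 6.49 to 9.14, 9.02 and 9.23 and stood at 6.804, 6.43 and 6.42 and 6.66, 6.699 and 6.47 in ST2KO, a difference of -2.54 ± 0.23 (adjusted p = 4.0e-06). Tnfaip3, the ubiquitin-editing enzyme A20 that limits NF-kB signalling, differed by -1.95 ± 0.23, and the signalling adaptor gene Traf1 by -1.69 ± 0.23 (adjusted p = 8.1e-05 and 0.00026). Another kept probe of Traf1, with a mean level of 9.43, gave a larger difference of -3.04 ± 0.23.

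Of 16 tested members of the IL-33 and IL-1 receptor signalling list 3 responded less and 0 more, and the list median was 0.049. Il1rap, the accessory chain of the receptor, differed by 0.33 ± 0.24 and the adaptor gene Myd88 by 0.205 ± 0.24, neither past the test (adjusted p = 0.679 and 0.811). The 3 that passed were Irak3, an inhibitory member of the IRAK family, at -1.34 ± 0.19 (adjusted p = 0.0005), the kinase gene Irak2 at -0.96 ± 0.19 (adjusted p = 0.0091), and Il1rn, which encodes the IL-1 receptor antagonist, at -1.69 ± 0.39 (adjusted p = 0.0306). Il1rn stood at 5.197, 6.37 and 5.41 unstimulated and 7.47, 7.60 and 6.98 after IL-33 in WT, against 4.69, 4.66 and 5.01 and 5.16, 4.598 and 4.61 in ST2KO. Its unstimulated WT array 2 was the highest of the 6 unstimulated arrays. The Il1rn call ended without any 1 of the arrays WT unstimulated 1 or 3, WT IL-33 1 or 2, ST2KO unstimulated 1, 2 or 3, ST2KO IL-33 2 or 3 (adjusted p = 0.0541 to 0.0917). The Irak2 call ended without the 3 WT number 2 arrays and the ST2KO IL-33 array 1 (adjusted p = 0.0828).

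Of 12 inflammatory cytokine genes 4 responded less in ST2KO and 0 more, and the list median was -0.44, or -0.38 with levels below background raised to the detection floor. Il1a, which encodes the alarmin IL-1 alpha, stood at 5.397, 6.26 and 5.299 on the unstimulated WT arrays and at 9.44, 9.41 and 9.504 after IL-33. Its ST2KO levels were 5.503, 5.36 and 5.37 unstimulated and 5.22, 5.301 and 5.23 after IL-33, the lowest mean of the 4 groups. The difference of responses was -3.96 ± 0.39 (adjusted p = 8.4e-06). Il1b, the gene of IL-1 beta, was already abundant at rest, at 11.73, 11.44 and 11.32 in WT and 11.99, 11.64 and 11.54 in ST2KO. After IL-33 it stood at 14.08, 14.14 and 14.32 in WT and 11.24, 11.82 and 11.62 in ST2KO, so the WT arrays were apart and the ST2KO arrays overlapped their controls. The difference was -2.84 ± 0.22 (adjusted p = 8.7e-07). Il6, a cytokine of the acute phase and of B cell help, went from 7.502, 8.48 and 7.88 to 10.59, 10.89 and 10.96 in WT and stood at 7.28, 7.15 and 7.27 and 7.94, 7.24 and 7.09 in ST2KO, a difference of -2.67 ± 0.38 (adjusted p = 0.00049). The fourth was Ebi3, a subunit shared by IL-27 and IL-35, at -2.03 ± 0.25.

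Of 10 type 2 and growth cytokine genes 1 responded less, Csf2, which encodes the growth factor GM-CSF. Its levels were 7.37, 8.97 and 7.38 and, after IL-33, 11.05, 11.48 and 11.26 in WT, and 7.32, 6.65 and 6.18 and 7.64, 6.85 and 6.17 in ST2KO. The WT IL-33 arrays lay above all others, and the unstimulated WT array 2 was the highest of the rest. The difference was -3.18 ± 0.55 (adjusted p = 0.0032), and it was -3.61 without the 3 WT number 2 arrays. Il4, the signature cytokine of basophils, stood at 10.83, 11.03 and 10.83 unstimulated and 10.87, 11.26 and 10.98 after IL-33 in WT, and at 10.59, 10.71 and 10.57 and 10.75, 10.57 and 10.54 in ST2KO. Its WT groups overlapped, and its difference of responses was -0.15 ± 0.15 (95% confidence interval -0.47 to 0.18, adjusted p = 0.795). Il13, which drives mucus production and helminth expulsion, stood at 4.896, 5.87 and 5.27 and 6.21, 6.92 and 6.27 in WT and at 5.13, 4.96 and 5.03 and 4.83, 5.39 and 4.995 in ST2KO. Its WT IL-33 arrays were above all others, but the difference of -1.09 ± 0.32 did not pass (adjusted p = 0.134). It did pass without the WT unstimulated array 2 (adjusted p = 0.0192), without the 3 WT number 2 arrays (0.0188), and without those and the ST2KO IL-33 array 1 (0.0442).

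Of 18 chemokine genes tested, 4 responded less and 0 more (median -0.31, or -0.16 with levels raised to the detection floor). Cxcl2, a neutrophil attractant, stood at 7.896, 9.32 and 7.96 unstimulated and 12.56, 12.59 and 12.79 after IL-33 in WT. In ST2KO it stood at 7.73, 7.41 and 7.101 and 7.92, 7.33 and 6.995. The WT IL-33 arrays were far above all others, and the unstimulated WT array 2 was above the other unstimulated arrays. The WT change was 19.1-fold, the ST2KO change was 0.0017 ± 0.31 on the log2 scale, and their difference was -4.25 ± 0.44 (adjusted p = 1.7e-05). Cxcl16, a ligand of CXCR6 that also exists as a membrane protein, differed by -1.76 ± 0.32, and Ccl3, the macrophage inflammatory protein 1 alpha, by -1.49 ± 0.23 (adjusted p = 0.0042 and 0.00092). Ccl3 was among the brightest genes at rest, at 12.49, 13.18 and 12.53 in WT and 12.24, 12.22 and 11.98 in ST2KO, and stood at 14.23, 14.45 and 14.12 and 12.43, 12.15 and 11.99 after IL-33. Ccl1, a ligand of CCR8, was above background on 0 of 3 arrays in each of the 4 groups except WT IL-33, where it was at least 1.82-fold above unstimulated WT cells (adjusted p = 0.0248 for the difference of responses).

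Among surface receptors, 3 of 21 genes of the TNF superfamily and costimulation list responded less (median -0.16, or -0.065 with levels raised to the detection floor). Fas, the death receptor, rose from 7.44, 7.79 and 7.35 to 9.58, 9.64 and 9.41 in WT and stood at 7.16, 7.103 and 7.01 and 7.18, 7.09 and 7.09 in ST2KO. The 6 ST2KO arrays lay close together whatever the treatment, and the difference was -1.99 ± 0.18 (adjusted p = 4.0e-06). The TNF receptor gene Tnfrsf1b differed by -1.94 ± 0.21 and Pdcd1lg2, a ligand of the inhibitory receptor PD-1, by -0.96 ± 0.18 (adjusted p = 2.4e-05 and 0.0065). Of 18 adhesion molecules and integrins 2 responded less and 1 more. Icam1, the ligand of leukocyte integrins, stood at 8.48, 8.76 and 8.38 and 11.296, 11.17 and 10.98 in WT and at 8.43, 8.19 and 8.02 and 8.49, 8.34 and 8.08 in ST2KO, a difference of -2.51 ± 0.21 (adjusted p = 1.9e-06). Itga5, a chain of the fibronectin receptor, differed by -0.96 ± 0.22 (adjusted p = 0.029). The Itga5 call ended without any 1 of the arrays WT unstimulated 1 or 2, WT IL-33 1 or 2, ST2KO unstimulated 2 or 3, ST2KO IL-33 1 or 3 (adjusted p = 0.0638 to 0.0922), and without the 3 WT number 2 arrays (0.112).

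Several lead genes lay outside the cytokine and NF-kB lists. Cdk5r1, which encodes p35, the activator of the kinase Cdk5 best known from neurons, had the lowest difference of responses among genes detected in all 4 groups. It stood at 5.59, 4.83 and 5.46 unstimulated and 9.78, 9.67 and 9.99 after IL-33 in WT, and at 5.497, 5.98 and 5.42 and 5.93, 5.199 and 5.48 in ST2KO. The WT IL-33 arrays were far above the 9 others, which overlapped, and the difference was -4.62 ± 0.39 (adjusted p = 1.9e-06). Clec4e, which encodes Mincle, a lectin receptor for glycolipids of microbes and dead cells, went from 7.74, 8.45 and 7.29 to 10.93, 10.84 and 10.698 in WT and stood at 7.697, 7.47 and 7.56 and 7.09, 7.69 and 7.45 in ST2KO. Its difference was -3.16 ± 0.36 (adjusted p = 5.8e-05). Milr1, which encodes the inhibitory receptor Allergin-1, was the 1 of 16 Fc epsilon receptor signalling genes that responded less. Its levels were 6.63, 7.503 and 7.08 and 10.299, 10.45 and 10.42 in WT and 6.48, 6.699 and 6.42 and 6.89, 6.88 and 6.44 in ST2KO, with no WT IL-33 array near any other, and it differed by -3.12 ± 0.28 (adjusted p = 4.0e-06). Hcar2, the receptor for niacin and the ketone body beta-hydroxybutyrate, differed by -2.79 ± 0.36. Itih1, a heavy chain of the inter-alpha-trypsin inhibitor, differed by -3.02 ± 0.31 (adjusted p = 0.00016 and 1.5e-05).

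Genes of secreted mediators and metabolism followed. Of 10 genes for lipid mediator, histamine and serotonin synthesis 2 responded less, Tph1 and Ptges. Tph1, the first enzyme of serotonin synthesis outside the brain and also a mast cell marker, stood at 6.28, 6.51 and 5.02 and 8.75, 8.41 and 8.45 in WT and at 6.16, 5.98 and 5.72 and 5.32, 5.67 and 5.95 in ST2KO. The unstimulated WT arrays were widely spread, yet all WT IL-33 arrays were above them, and the difference was -2.91 ± 0.41 (adjusted p = 0.00049). Ptges, an inducible prostaglandin E synthase, differed by -0.77 ± 0.15 (adjusted p = 0.0068). Hdc, the enzyme of histamine synthesis, was near the top of the scale in every group and differed by 0.11 ± 0.12 (adjusted p = 0.799). Of 13 NRF2 targets and itaconate genes 4 responded less (median -0.52). Slc7a11, the cystine importer that feeds glutathione synthesis, differed by -2.297 ± 0.29 (adjusted p = 0.00014), and Sod2, the mitochondrial superoxide dismutase, by -1.08 ± 0.18 (adjusted p = 0.002). Acod1, which makes itaconate in activated myeloid cells, stood at 10.09, 11.32 and 9.84 and 12.81, 13.19 and 12.68 in WT and at 8.996, 8.69 and 8.19 and 9.56, 8.74 and 8.25 in ST2KO. The genotypes did not overlap in either state, the unstimulated ST2KO arrays all lying below the unstimulated WT arrays. Its difference of responses was -2.25 ± 0.49 (adjusted p = 0.0205), a call that ended without any 1 of the arrays WT unstimulated 1 or 3, WT IL-33 2, ST2KO unstimulated 1 or 2, ST2KO IL-33 2 or 3 (adjusted p = 0.0506 to 0.0697). Papss2, which makes the sulfate donor for sulfation, differed by -2.67 ± 0.45 (adjusted p = 0.0025) and Hilpda, a lipid droplet protein, by -1.01 ± 0.199 (adjusted p = 0.0091).

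Of the 176 genes, 25 were above background on 0 of 3 arrays in at least 1 of the 4 groups, 22 responding less and 3 responding more in ST2KO. Folds of the 22 are given as bounds, and no bound was formed for the 3. A bound sets the mean of the brighter group against, on each array of the dim group, either the probe's own level or the dimmest detected probe, whichever is brighter. Plat, the tissue plasminogen activator gene, was not above background on the WT arrays without stimulus or on the unstimulated and IL-33 arrays of ST2KO. Its levels there lay between 4.36 and 4.71, while the WT IL-33 arrays stood at 10.402, 10.26 and 10.61. It was at least 48.9-fold above its unstimulated level in WT after IL-33, and at least 48.8-fold higher in WT than in ST2KO after IL-33 (adjusted p = 1.2e-09 for the difference of responses). Serpinb2, an inhibitor of plasminogen activators in the same list of 5 genes, was measured in all groups and differed by -1.94 ± 0.397 (adjusted p = 0.0128). Tpbg, a membrane glycoprotein that modulates Wnt signalling, stood at 8.57, 8.74 and 8.87 on the WT IL-33 arrays and was not above background in the 3 other groups, at least 15.1-fold lower in unstimulated WT (adjusted p = 4.6e-07). Dgat2, the last enzyme of triglyceride synthesis, was detected on 1 of the 3 unstimulated WT arrays and on 0 of 3 in either ST2KO group. It stood at 9.27, 9.17 and 8.89 after IL-33 in WT, at least 19.6-fold above ST2KO (adjusted p = 8.4e-06). After IL-33 in WT, the bound over unstimulated WT cells was at least 3.46-fold for Pou2f2, the B cell transcription factor Oct-2. It was at least 3.2-fold for the aldehyde dehydrogenase gene Aldh3a1. For Mst1r, the receptor tyrosine kinase RON, it was at least 2.8-fold, and for Hamp, the iron hormone hepcidin, at least 2.09-fold. Aldh3a1 was above background on 2 of 3 unstimulated and 1 of 3 IL-33 arrays of ST2KO and has no bound against ST2KO. Pou2f2 was above background on 1 of 3 unstimulated ST2KO arrays. With every level raised to the detection floor, Aldh3a1, Mst1r and Hamp no longer passed (adjusted p = 0.0985, 0.0634 and 0.138). The Aldh3a1 call also ended without any 1 of the arrays WT unstimulated 2 or 3, WT IL-33 1 or 3, ST2KO unstimulated 1 or 3, ST2KO IL-33 1 or 2 (adjusted p = 0.0503 to 0.072).

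Of 20 immediate early and AP-1 genes 4 responded less (median -0.21). Egr2, a zinc finger factor, stood at 5.45, 6.51 and 5.27 and 7.62, 7.896 and 7.62 in WT and at 5.64, 5.62 and 5.07 and 5.48, 5.14 and 5.67 in ST2KO, a difference of -1.98 ± 0.35 (adjusted p = 0.004). Batf, an AP-1 family member, differed by -1.89 ± 0.24 and the stress response gene Ier3 by -1.29 ± 0.202 (adjusted p = 0.00016 and 0.0013), and Junb made up the 4. Of 22 feedback genes of MAP kinase and cytokine signals 4 responded less and 1 more (median -0.32). Gadd45b, a stress sensor acting on MAP kinase cascades, differed by -1.78 ± 0.33, and Socs3, an inhibitor of cytokine receptor signalling, by -1.58 ± 0.32 (adjusted p = 0.006 and 0.011). Pim1, a kinase induced by cytokines, differed by -0.95 ± 0.204 (adjusted p = 0.0183). The Pim1 call ended without any 1 of the arrays WT unstimulated 2, WT IL-33 3, ST2KO unstimulated 3, ST2KO IL-33 1 or 2 (adjusted p = 0.0509 to 0.0628), and without the 3 WT number 2 arrays (0.0637).

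**Figure D3:**
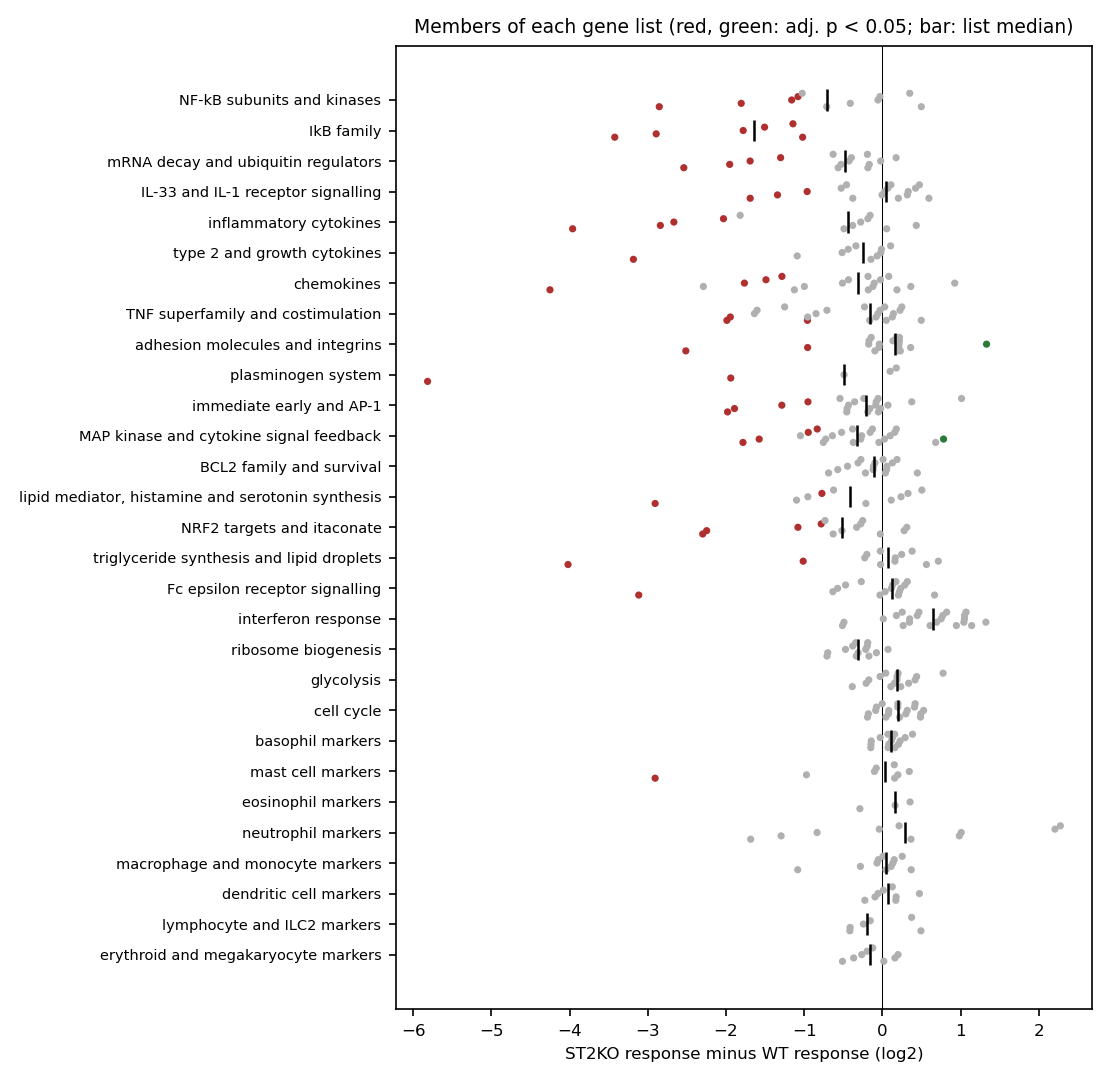
Difference of responses, ST2KO minus WT on the log2 scale, for the tested members of 21 pathway lists and 8 marker lists; red and green points passed an adjusted p of 0.05, and a bar marks each list's median. All 6 IkB family members are red, in lists chosen with earlier results of these data known. The interferon list lies mostly to the right of 0. The neutrophil list spreads to both sides, from -1.68 to 2.28, and 0 members of either list passed the test.

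The 18 genes with a higher ST2KO response were ones that fell in WT. Itgb4, the integrin beta 4 chain, stood at 7.11, 6.802 and 7.02 unstimulated and 5.68, 5.77 and 5.39 after IL-33 in WT, and at 7.30, 7.48 and 7.47 and 6.88, 7.59 and 7.67 in ST2KO. The WT IL-33 arrays were the 3 lowest of the 12, and the difference was 1.33 ± 0.26 (adjusted p = 0.0076). Matk, a Csk-related kinase that inhibits Src kinases, stood at 9.97, 10.46 and 10.22 and 9.15, 9.75 and 8.76 in WT and at 9.93, 9.896 and 9.64 and 10.35, 10.12 and 9.86 in ST2KO, a difference of 1.28 ± 0.29 (adjusted p = 0.0248). Nav1, a neuron navigator gene, differed by 1.096 ± 0.25, and Tppp3, a tubulin-binding protein, by 1.07 ± 0.26 (adjusted p = 0.0309 and 0.0444). Ankrd13d, an ankyrin repeat protein, differed by 0.94 ± 0.21 (adjusted p = 0.0229). Csgalnact1, an enzyme of chondroitin sulfate synthesis, stood at 6.43, 6.35 and 6.38 and 5.66, 5.698 and 5.58 in WT and at 5.96, 6.02 and 6.19 and 6.103, 6.05 and 6.41 in ST2KO. Its arrays were tight within each group, and it differed by 0.87 ± 0.16 (adjusted p = 0.0045). Slc46a3, a lysosomal transporter, differed by 0.85 ± 0.197, and Rgs2, which shortens G protein signals, by 0.78 ± 0.18 (adjusted p = 0.0315 and 0.0252).

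The count of 18 was less stable than that of 158. It was 15, 11 and 9 without the WT unstimulated arrays 1, 2 and 3, and 7, 19 and 8 without the WT IL-33 arrays 1, 2 and 3. It was 8, 9 and 10 without the ST2KO unstimulated arrays 1, 2 and 3, and 9, 4 and 7 without the ST2KO IL-33 arrays 1, 2 and 3. The count of 158 lay between 130 and 171 over the same 12 omissions. The Matk call ended without any 1 of the arrays WT unstimulated 2 or 3, WT IL-33 1 or 3, ST2KO unstimulated 3, ST2KO IL-33 1 or 2 (adjusted p = 0.0584 to 0.0805). That of Nav1 ended without WT unstimulated 1 or 3, WT IL-33 1, 2 or 3, ST2KO unstimulated 1, ST2KO IL-33 2 or 3 (adjusted p = 0.0527 to 0.0955), and that of Tppp3 without WT unstimulated 3, WT IL-33 2 or 3, ST2KO unstimulated 1 or 3, ST2KO IL-33 1, 2 or 3 (adjusted p = 0.0579 to 0.139). The Tppp3 call also ended with the replicate number as a fixed block (adjusted p = 0.0569). The Ankrd13d call ended without WT unstimulated 2 or 3, WT IL-33 1 or 3, ST2KO unstimulated 1 or 3, ST2KO IL-33 2 or 3 (adjusted p = 0.0519 to 0.0765). For Slc46a3 it ended without WT unstimulated 1 or 3, WT IL-33 1 or 2, ST2KO unstimulated 1, 2 or 3, ST2KO IL-33 2 or 3 (adjusted p = 0.0553 to 0.099), and for Rgs2 without WT unstimulated 1 or 2, WT IL-33 1 or 3, ST2KO unstimulated 2, ST2KO IL-33 2 or 3 (adjusted p = 0.0506 to 0.0838). The calls of Itgb4 and Csgalnact1 held in all 12 omissions and ended with the mean of their probes (adjusted p = 0.0522 and 0.056). The mean of the probes also ended those of Matk, Nav1 and Rgs2 (adjusted p = 0.188, 0.104 and 0.167). Rgs2 and Tppp3 did not pass with the authors' values (0.0923 and 0.0733) or without the 3 WT number 2 arrays (0.0752 and 0.0684). None of these named calls held in all 25 settings, with 1 lost for Itgb4 and Csgalnact1 and up to 16 for Tppp3.

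Of the 300 genes that rose in WT, 145 did not pass the difference, with a median change of 0.74 in WT and 0.045 in ST2KO. The WT change is one side of the difference, so nothing is read from its sign or from how many passed. Of these 145, 3 had a WT change of 2 or more on the log2 scale and, named after their values were seen, were Cxcl1, Rassf4 and Tnf. Tnf stood at 6.197, 8.68 and 6.84 and 9.25, 10.28 and 8.901 in WT and at 5.95, 5.98 and 5.42 and 6.91, 6.03 and 5.65 in ST2KO. Its unstimulated WT array 2 was far above the others of its group, and its difference was -1.82 ± 0.68 (adjusted p = 0.293). The chemokine gene Cxcl1 differed by -2.29 ± 0.63 (adjusted p = 0.0949) and Rassf4 by -2.89 ± 0.79 (adjusted p = 0.0881), whose unstimulated WT levels ran from 7.45 to 9.54.

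Before the stimulus, the genotypes differed in 0 genes with limma (0% of those tested, lowest adjusted p = 0.553), with 832 at an unadjusted p under 0.05 (8.34%). The 158 genes had a median ST2KO minus WT difference at rest of 0.016, and 76 of them were below 0. At an unadjusted p under 0.05, 14 of the 158 were lower and 14 higher in unstimulated ST2KO cells, beside 3.51% and 4.83% of all genes. The range ran from -1.79 for Acod1 through -1.19 for Csf2, -0.98 for Cxcl2 and -0.87 for Il1rn up to 0.701 for Fabp5 and 0.72 for Tnfrsf13b, a receptor for BAFF and APRIL, all named after their values were seen. For the genes at the low end the unstimulated WT array 2 was the highest of its group. Over the 158 genes that array was the highest of the 3 in 72 (45.6%), beside 34.0% of all genes tested. Any part of that array in these values was not tested. After IL-33, 605 genes differed between genotypes (6.07%), 374 lower (3.75%) and 231 higher (2.32%) in ST2KO, and they took in 171 of the 176. The count of 605 was 365 without the WT IL-33 array 1, 357 without the ST2KO IL-33 array 2 and 369 without array 3. The other 434 differed after IL-33 without a difference of responses that passed. The IL-33 arrays of the genotypes did not overlap for 155 of the 158, beside 946 genes (9.49%) lower in ST2KO among all tested, and the unstimulated arrays did not for 33 (14.6% of all genes). Both comparisons use arrays of the difference itself, so nothing is read from these counts.

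**Figure D4:**
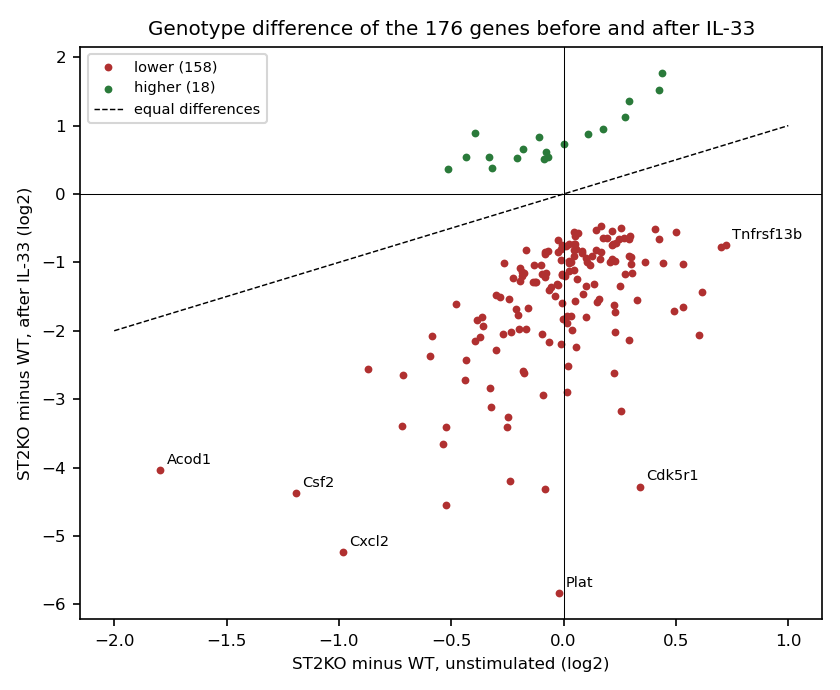
ST2KO minus WT difference on the log2 scale in unstimulated cells (x axis) and after IL-33 (y axis) for the 158 genes with a lower (red) and the 18 with a higher (green) ST2KO response; the dashed line marks equal differences. The red genes lie below the line, from Acod1 at -1.79 to Tnfrsf13b at 0.72 on the x axis.

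A residual response in ST2KO cells was looked for in every gene. The 95% confidence interval of the ST2KO change excluded 0 in 274 genes (2.75%). That is a smaller share than a 95% interval misses where no gene changes, so no residual response is read from single intervals. Among the 158 it lay above 0 in 0 and below 0 in 5, namely Fabp5, Fnbp1, Sephs2, Snx10 and Stau2. The ST2KO change is part of the difference that chose the 158, so nothing is read from these counts. Fabp5, a fatty acid binding protein, stood at 5.42, 5.23 and 5.24 and 6.37, 5.55 and 6.73 in WT and at 6.08, 5.69 and 6.23 and 5.07, 5.82 and 5.43 in ST2KO. Its fitted changes had opposite signs, with the IL-33 arrays of the genotypes overlapping, and the difference was -1.48 ± 0.36 (adjusted p = 0.0427). Fabp5, Fnbp1, which encodes a membrane-bending F-BAR protein, and Stau2, an RNA-binding protein, were the 3 genes that passed the difference and not the WT change. Fnbp1 differed by -0.67 ± 0.16 and Stau2 by -0.91 ± 0.21 (adjusted p = 0.0387 and 0.0335). The Fabp5 call ended without any 1 of the arrays WT unstimulated 1, 2 or 3, WT IL-33 1 or 3, ST2KO unstimulated 1 or 3, ST2KO IL-33 1 or 3 (adjusted p = 0.0613 to 0.13). The Fnbp1 call ended without WT unstimulated 2 or 3, WT IL-33 1 or 3, ST2KO unstimulated 1, 2 or 3, ST2KO IL-33 1, 2 or 3 (adjusted p = 0.0503 to 0.118), and the Stau2 call without WT unstimulated 2 or 3, WT IL-33 1, 2 or 3, ST2KO unstimulated 1, 2 or 3, ST2KO IL-33 1, 2 or 3 (adjusted p = 0.0514 to 0.104). Of 3 other kept probes of Fnbp1, 2 had the opposite sign (0.106 and 0.093). A change kept in ST2KO cells makes the difference smaller, so nothing is read from whether genes with such a change passed it. Of the 377 genes that changed in WT, 3 had an ST2KO interval on the same side of 0 as the WT change, and 0 of the 3 passed the difference. They were Mgat4b, an N-glycan branching enzyme, at 0.59 ± 0.13 in WT and 0.31 ± 0.13 in ST2KO, Rapgef1, a guanine nucleotide exchange factor, at 0.79 ± 0.13 and 0.29 ± 0.13, and Tmem184c, a transmembrane protein, at -0.62 ± 0.14 and -0.33 ± 0.14. None of their ST2KO changes passed across all genes (adjusted p = 1, 1 and 1).

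In 5 pathway lists 0 members passed the test. Of 22 interferon response genes 20 had a difference above 0 and the median was 0.65, but 0 passed with limma and 0 had an unadjusted p under 0.05. Usp18, a brake on interferon signalling, stood at 10.17, 12.54 and 11.05 and 10.43, 12.42 and 9.37 in WT and at 9.003, 9.32 and 7.86 and 10.87, 9.52 and 8.23 in ST2KO. The WT arrays 2 and the ST2KO IL-33 array 1 were the highest of their groups, and the difference was 1.32 ± 1.22 (adjusted p = 0.764). It was 1.52 without the 3 WT number 2 arrays and 0.85 without those and the ST2KO IL-33 array 1, and from 0.64 to 2.17 over the 12 omissions of 1 array. For 16 survival genes of the BCL2 family the median was -0.104, with Bcl2a1b at -0.69 ± 0.33 (adjusted p = 0.472), a gene with near-identical copies that a probe may not tell apart. Of 13 ribosome biogenesis genes 12 were below 0 (median -0.31, or -0.21 with levels raised to the detection floor). Nop58 had -0.71 ± 0.22 (adjusted p = 0.177) and passed without the WT IL-33 array 2 (0.0279) or without the 3 WT number 2 arrays (0.037). For 15 glycolysis genes the median was 0.19 and for 18 cell cycle genes 0.199, or 0.17 with levels raised to the floor. Pfkp, a phosphofructokinase, had 0.78 ± 0.24 (adjusted p = 0.168) and passed without the WT unstimulated array 1 (0.0275). At an unadjusted p under 0.05 these lists counted 1 lower gene each for survival, ribosome biogenesis and glycolysis, and 2 higher genes each for glycolysis and the cell cycle.

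Markers of cell types other than the basophil were compared in the same way. Of 15 basophil markers 0 differed in response with limma and 1 had an unadjusted p under 0.05, and the list median was 0.11. Mcpt8, the basophil protease, stood at 12.79, 13.45 and 12.76 and 12.75, 12.85 and 12.43 in WT and at 12.76, 12.35 and 12.95 and 12.87, 12.47 and 12.64 in ST2KO, a difference of 0.29 ± 0.29 (95% confidence interval -0.32 to 0.91). Among markers of neutrophils (10 tested), macrophages (11), eosinophils (3), dendritic cells (8), lymphocytes (6) and the erythroid and megakaryocyte lines (8) 0 passed, and of 8 mast cell markers Tph1 did. S100a8, a calcium-binding protein of neutrophils, had the largest difference above 0 of all genes, 2.28 ± 1.53 (adjusted p = 0.648). It stood at 9.07, 11.36 and 10.91 and 8.96, 11.58 and 7.14 in WT and at 7.06, 7.95 and 7.503 and 10.89, 7.36 and 7.43 in ST2KO. The ST2KO IL-33 array 1 was high and the WT IL-33 array 3 low, and over the 12 omissions of 1 array the difference ran from 1.11 to 3.45. Cd14, a monocyte marker and a coreceptor for lipopolysaccharide, had -1.08 ± 0.47 (adjusted p = 0.402). A part of these markers in the 176 calls was not tested.

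The same genes were measured after IgE stimulation, which engages a receptor other than ST2. Fitted changes after IgE are set beside those after IL-33, and since both use the same unstimulated arrays no relation between them was computed. Over the 158 genes the median change after IgE was 1.04 in WT and 0.97 in ST2KO, beside -0.017 and -0.025 over all genes tested. The 158 were chosen on the same unstimulated arrays, so nothing is read from these medians. Csf2 changed by 5.99 ± 0.39 after IgE in WT and 7.12 ± 0.39 in ST2KO, compared with 3.36 ± 0.39 and 0.17 ± 0.39 after IL-33. Il1a gave 6.43 ± 0.27 and 6.61 ± 0.27 after IgE, and Il6 4.19 ± 0.27 and 5.201 ± 0.27. After IgE all 3 rose in ST2KO cells (adjusted p = 3.4e-10, 1.7e-11 and 1.9e-10), while after IL-33 none of the 3 passed there (adjusted p = 1, 1 and 1). Cdk5r1 gave 1.86 ± 0.27 in WT and 1.24 ± 0.27 in ST2KO after IgE, beside 4.52 ± 0.27 after IL-33 in WT. Nfkbiz gave 1.499 ± 0.25 and 1.35 ± 0.25 after IgE beside 3.38 ± 0.25, and Itih1 1.09 ± 0.22 and 0.68 ± 0.22 beside 3.11 ± 0.22. Whether the genotypes differed in the IgE response was not tested here.

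**Figure D5:**
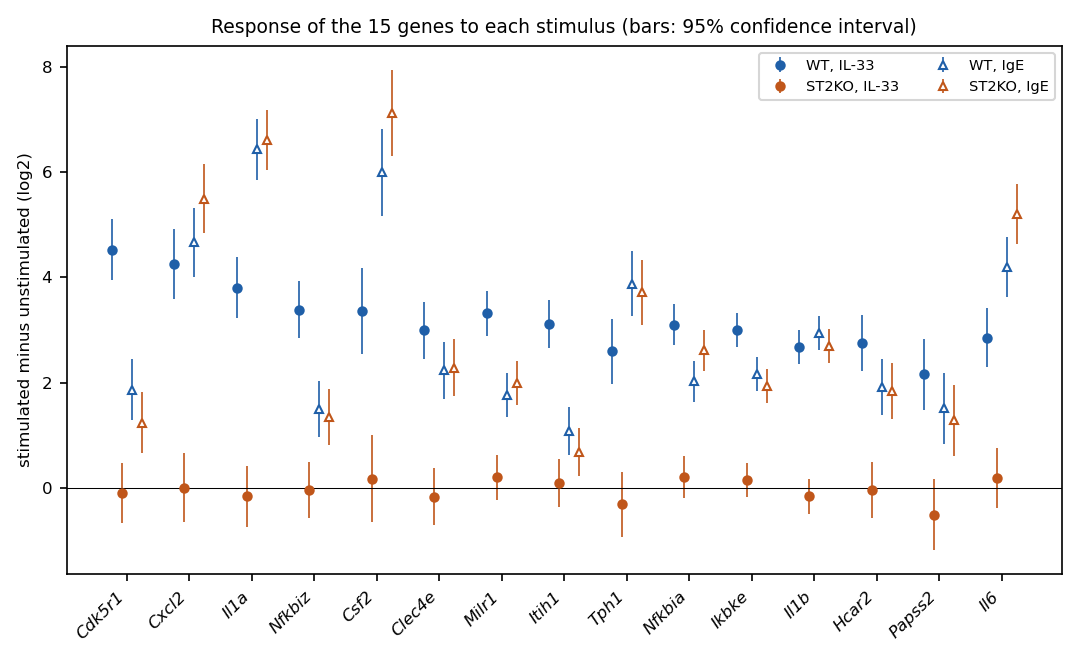
Log2 change from unstimulated cells after IL-33 (circles) and after IgE (triangles) in WT (blue) and ST2KO (orange) for the 15 genes with the lowest difference of IL-33 responses among those detected in all 4 groups; bars are 95% confidence intervals. The interval of the ST2KO change after IL-33 includes 0 for each gene, with the change farthest from 0 that of Papss2, at -0.51, and all 15 have values above 0 after IgE in both genotypes.

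Other probes of the same genes gave a second reading. Of the 176 genes 70 had more than 1 kept probe, and for 65 of them every other probe had the same sign. The 5 with a probe of opposite sign were Camkk2, Fnbp1, Ints10, Lrp4 and Pik3cd. Of 98 such other probes 92 had the same sign, 69 of them at an unadjusted p under 0.05.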

How the data were processed

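RNA of 18 mouse basophil samples was hybridised to an Illumina bead array. The deposited table holds, per the file headers, an average signal per probe (a linear intensity, not yet normalized) and a detection p-value. The authors also deposited processed values on a log2 scale, with the same distribution on every array and scanner signals in the same order; how they were made is not stated, and whether a constant was added is unknown.

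Intensities were background corrected from the detection p-values, quantile normalized and moved to log2 with an offset of 16 (neqc, limma 3.58.1, R 4.3.3), so changes of dim probes are compressed. Of 45281 probes the 18078 whose detection p-value was under 0.05 on 3 or more of 18 arrays were kept. Names came from the platform annotation: 34885 probes had 1 symbol, 18 several and 10378 none. The brightest kept probe stood for each of 9973 genes. Group means were estimated from all 18 arrays together (lmFit, eBayes), and p-values were adjusted by Benjamini-Hochberg over all genes, with 0.05 as threshold. Errors are standard errors with n = 3 arrays per group. The fit was tested on simulated data.

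Named genes were chosen by a rule. It took the 15 lowest and 8 highest differences among passing genes detected on at least 1 array of each of the 4 groups without overlap of the WT groups. It added the 6 with the largest bounds, up to 3 passing genes of each of 29 lists (else 1), and genes passing the difference but not the WT change. Last came 3 genes with an ST2KO interval on the same side of 0 as the WT change, and Il4, Il13, Il6 and Mcpt8. Genes named outside this rule were chosen after their values were seen. The comparison and the lists were chosen with earlier results of these data known. Same-numbered WT arrays, unstimulated and IL-33, deviated together (correlations 0.39, 0.59 and 0.18), while the 3 ST2KO pairs did not all do so. Alternatives covered background correction, the authors' values, filters, probe choice, arrays fitted, weights, blocks and omitted arrays.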

Additional observations from a re-analysis of the deposited data

Results flagged for a closer look

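A difference between the genotypes in the response to IL-33, tested as such, singled out 158 genes that responded less and 18 that responded more in ST2KO. The values below are that difference, ST2KO minus WT on the log2 scale, for the named genes that passed.

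Among genes detected in all 4 groups the lowest were Cdk5r1 (-4.62), Cxcl2 (-4.25), Il1a (-3.96), Nfkbiz (-3.42), Csf2 (-3.18), Clec4e (-3.16), Milr1 (-3.12) and Itih1 (-3.02). Next came Tph1 (-2.91), Nfkbia (-2.89), Ikbke (-2.85), Il1b (-2.84), Hcar2 (-2.79), Papss2 (-2.67) and Il6 (-2.67). The highest were Itgb4 (1.33), Matk (1.28), Nav1 (1.096), Tppp3 (1.07), Ankrd13d (0.94), Csgalnact1 (0.87), Slc46a3 (0.85) and Rgs2 (0.78).

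For genes below background in at least 1 group the fitted value is no bound on the fold: Plat (-5.82), Tpbg (-4.24), Dgat2 (-4.02), Pou2f2 (-2.25), Aldh3a1 (-2.197), Mst1r (-1.82) and Hamp (-1.61).

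Within the lists, NF-kB genes and their regulators gave Relb (-1.805), Nfkb2 (-1.16), Bcl3 (-1.78), Zc3h12a (-2.54), Tnfaip3 (-1.95) and Traf1 (-1.69). Receptor, chemokine and adhesion genes gave Il1rn (-1.69), Irak3 (-1.34), Irak2 (-0.96), Cxcl16 (-1.76), Ccl3 (-1.49), Fas (-1.99), Tnfrsf1b (-1.94), Pdcd1lg2 (-0.96), Icam1 (-2.51) and Itga5 (-0.96). Transcription factor and feedback genes gave Egr2 (-1.98), Batf (-1.89), Ier3 (-1.29), Gadd45b (-1.78), Socs3 (-1.58) and Pim1 (-0.95). Enzyme, inhibitor and transporter genes gave Serpinb2 (-1.94), Ptges (-0.77), Slc7a11 (-2.297), Acod1 (-2.25), Sod2 (-1.08) and Hilpda (-1.01). Fabp5 (-1.48), Fnbp1 (-0.67) and Stau2 (-0.91) passed the difference without passing the WT change.

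A signal was also present in data outside the gene table. Of 2839 kept probes without a single gene symbol 19 passed the same difference, 18 lower and 1 higher, a share of 0.669%, below the 1.32% (238 of 18078) over all kept probes.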

How the results depend on the processing

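The count of 176 genes was between 156 and 224 with no background correction, the authors' processed values, no or a stricter filter, the mean of the probes, only the 12 arrays, a replicate block, a trend and robust variance, levels raised to the detection floor, and without the 3 WT number 2 arrays, alone or with the ST2KO IL-33 array 1. The last omission of 4 arrays and the detection floor were chosen after seeing the data. With array weights it was 300, 246 lower and 54 higher, and shared 175 of the 176; the cause was not tested. All 176 kept their sign wherever they were tested, and 104 passed in every setting that tested them.

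Leaving out 1 array at a time gave 138 to 190 genes for the difference, 284 to 399 for IL-33 in WT, 0 for IL-33 in ST2KO, 0 for the genotypes at rest and 357 to 637 for the genotypes after IL-33. Array weights gave 641 for IL-33 in WT and 1347 for the genotypes after IL-33. At rest 1 gene passed without the 3 WT number 2 arrays and the ST2KO IL-33 array 1.

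For the replicate block, the headers attach the number to the genotype name, so a pairing would lie within a genotype. Same-numbered unstimulated and IL-33 arrays correlated at 0.39, 0.59 and 0.18 in WT and at -0.029, 0.045 and 0.26 in ST2KO. Between WT and ST2KO groups the correlations ran from -0.31 to 0.39. Of 12 arrays, 6 correlated best with their own number in the other treatment of the genotype. The main fit used no block. With the number as a fixed term 202 genes passed, 176 lower and 26 higher, and with a random block 224, 195 lower and 29 higher; of the named calls the block ended that of Tppp3 alone.

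Of 61 named genes that passed, 41 did so in all 25 settings. The 20 others lost the call in 1 to 16 settings each, with the same sign. The Mst1r call, for example, ended without background correction (adjusted p = 0.282) and that of Ptges with the mean of its probes (0.0749). By size, the mean of the probes made 4 named differences more than 1.5 times smaller, Csgalnact1 (0.504), Il1rn (-1.102), Pim1 (-0.49) and Fnbp1 (-0.36), and the detection floor that of Hamp (-1.04). Signal close to background limits 22 of the 176 genes to bounds and leaves 3 others without a bound.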
